A study of Mus musculus with 6 samples.

Results

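The Clcn5-intron cluster is a group of 5 microRNA (miRNA) hairpins, Mir532, Mir188, Mir362, Mir501 and Mir500, on the mouse X chromosome. Its members were chosen by name, as the mature rows for miR-532, miR-188, miR-362, miR-501 and miR-500, and they were 10 of the 1974 mature rows, 1 for each arm. The series held 6 small RNA libraries from heart cardiomyocytes of C57BL/6 mice: 2 from adult lncSync knockouts (genotype LncSync-/-), 2 from adult wild types, 1 from an e13.5 knockout and 1 from an e13.5 wild type, where e13.5 is the embryonic age in days. LncSync is a long non-coding RNA that this assay does not measure, so its loss could not be checked here, and the design sets null against wild type in embryonic and adult hearts. The labels give no adult age, no description of the deleted allele, no isolation method for the cells and no statement on pooling of animals.

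A hairpin is cut from a longer transcript and then diced, and either of its arms, 5p or 3p, can be loaded into the silencing complex. Bases 2 to 8 of the loaded arm, the seed, carry most of the target recognition. Hairpins in an intron can be released from the host gene's transcript or from a promoter of their own. Clcn5 encodes ClC-5, an endosomal chloride and proton exchanger studied chiefly in the kidney, where its loss causes Dent disease. In mouse tissue, miR-501 is known from activated muscle progenitor cells, miR-188-3p from repression of the autophagy gene Atg7 in the heart, and miR-532-3p from repression of the apoptosis repressor ARC in cardiomyocytes. miR-362 and miR-500 are known mainly from human tumour cells.

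All 5 hairpins lie on the minus strand, within 10815 bases of chromosome X (7237683 to 7248497, GRCm38, the assembly also called mm10). In the direction of transcription Mir532 (7248402 to 7248497) comes first and Mir188 (7247989 to 7248056) follows after 345 bases. A gap of 5942 bases separates this pair from Mir362 (7241982 to 7242046), which stands 630 bases before Mir501 (7241243 to 7241351). Mir500 (7237683 to 7237774) comes last, 3468 bases further on. In the GENCODE annotation they all fall in 1 intron of 103648 bases (7213011 to 7316658), which is intron 3 or intron 2 depending on the transcript. Shorter Clcn5 transcripts, such as that from 7153810 to 7188714, start downstream of the hairpins and do not contain them.

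Mature sequences of 9 of the 10 arms were matched by name in RefSeq (GRCm38.p6). They are shown because the arms resemble each other and because near-identical arms differed in their counts. Each is written 5′ to 3′ with its seed in capitals.
miR-362-5p: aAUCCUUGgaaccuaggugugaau
miR-500-5p: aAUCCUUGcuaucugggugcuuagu
miR-501-5p: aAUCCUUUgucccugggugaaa
miR-188-5p: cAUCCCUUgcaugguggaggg
miR-501-3p: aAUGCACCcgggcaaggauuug
miR-500-3p: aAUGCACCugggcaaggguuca
miR-362-3p: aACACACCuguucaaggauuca
miR-532-3p: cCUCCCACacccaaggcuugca
miR-188-3p: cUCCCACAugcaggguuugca
The seed AUCCUUG was shared by miR-362-5p and miR-500-5p, and the seed AUGCACC by miR-501-3p and miR-500-3p. miR-501-3p and miR-500-3p matched at 18 of 22 positions and differed by C9U, A18G, U21C and G22A, with the base of miR-501-3p first and positions counted from 1 at the 5′ end. How the authors counted reads that fit more than 1 miRNA is not given in the sources used here, so the split between these arms is uncertain. Outside the cluster, miR-362-3p shared its seed ACACACC with miR-329-3p of chromosome 12, and miR-188-5p shared its own with miR-7061-3p, which had 0 counts in every library.

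The hairpins of the trio Mir362, Mir501 and Mir500 are shown with both mature arms in capitals, since the balance between the arms is one of the measurements below.
Mir362: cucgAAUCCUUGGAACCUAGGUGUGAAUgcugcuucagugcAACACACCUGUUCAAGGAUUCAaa
Mir501: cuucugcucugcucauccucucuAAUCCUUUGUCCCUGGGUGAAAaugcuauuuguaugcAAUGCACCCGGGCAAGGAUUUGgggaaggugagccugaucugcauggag
Mir500: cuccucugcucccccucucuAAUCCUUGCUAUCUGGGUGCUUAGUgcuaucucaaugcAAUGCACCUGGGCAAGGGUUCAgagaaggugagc

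Mature counts totalled 14347091 and 17608586 in the adult knockout libraries, 17933518 and 16794840 in the adult wild types, 2671957 in the e13.5 knockout and 8944552 in the e13.5 wild type. Nothing in the labels ties the replicates to different animals, and p-values therefore reflect library-to-library spread that may be technical. The adult knockout replicates differed more from each other than the wild types did, with a median absolute log2 difference of 0.821 against 0.341 over 137 abundant miRNAs. Cardiomyocyte miRNAs (miR-1a, miR-133a, miR-133b, miR-499, miR-208a and miR-208b, with 8 of 11 arms counted in every library and 1 in none) made up 28.2% to 39.5% of adult counts, 9.86% in the e13.5 knockout and 14.6% in the e13.5 wild type. Smooth muscle and fibroblast miRNAs (miR-143, miR-145a, miR-199a and miR-214) held 7.48% to 11.8% in adults, 21.5% in the e13.5 knockout and 35.5% in the e13.5 wild type, with all 8 arms counted in every library. Erythroid miRNAs held 0.565% to 2.23% in adults, 1.43% in the e13.5 knockout and 0.0748% in the e13.5 wild type. Levels below are CPM, the usual scaling of counts to the mature total of each library, unless the trimmed mean of M-values (TMM) scaling is named, and no scaling by length was applied, since the matched arms have 21 to 25 bases.

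The cluster was a small part of the adult miRNA pool and a larger part of the embryonic one. Summed over its 10 arms it stood at 239 and 189 CPM in the adult knockouts, 325 and 179 CPM in the adult wild types, 10110 CPM in the e13.5 knockout and 5115 CPM in the e13.5 wild type. As a share of counts this was 0.01787% to 0.0325% in adults, 1.011% (Wilson 95% interval 0.9994 to 1.023) in the e13.5 knockout and 0.5115% (0.5068 to 0.5162) in the e13.5 wild type. The adult libraries averaged 233 ± 66.7 CPM (SD, n = 4) and the e13.5 libraries 7610 ± 3530 CPM (SD, n = 2), so the adult mean was 32.7-fold lower. On TMM-scaled CPM it was 14.9-fold lower, and without the most abundant arm, miR-532-5p, 11.9-fold lower in library CPM. The stages did not overlap, and an exact two-sided permutation test gave p = 0.133, the smallest p that 4 against 2 libraries allow. In bulk libraries fewer cells of a type and less RNA per cell cannot be told apart. The smooth muscle, fibroblast and cardiomyocyte shares given above moved with stage as well. Epithelial miRNAs, with 4 of 10 arms counted in every library and 1 in none, held 0.00245% to 0.00548% of adult counts, 0.204% in the e13.5 knockout and 0.145% in the e13.5 wild type. Leukocyte miRNAs, with 8 of 10 arms counted in every library and 1 in none, held 0.177% to 0.28% in adults, 0.0192% in the e13.5 knockout and 0.0131% in the e13.5 wild type. Neuronal miRNAs held 0.00787% to 0.0155% in adults, 0.0306% in the e13.5 knockout and 0.0238% in the e13.5 wild type, and the liver miRNA miR-122 at most 0.000383% in adults, 0.0192% in the e13.5 knockout and 0.00452% in the e13.5 wild type. The part of these shares in the difference was not tested.

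**Figure D1:**
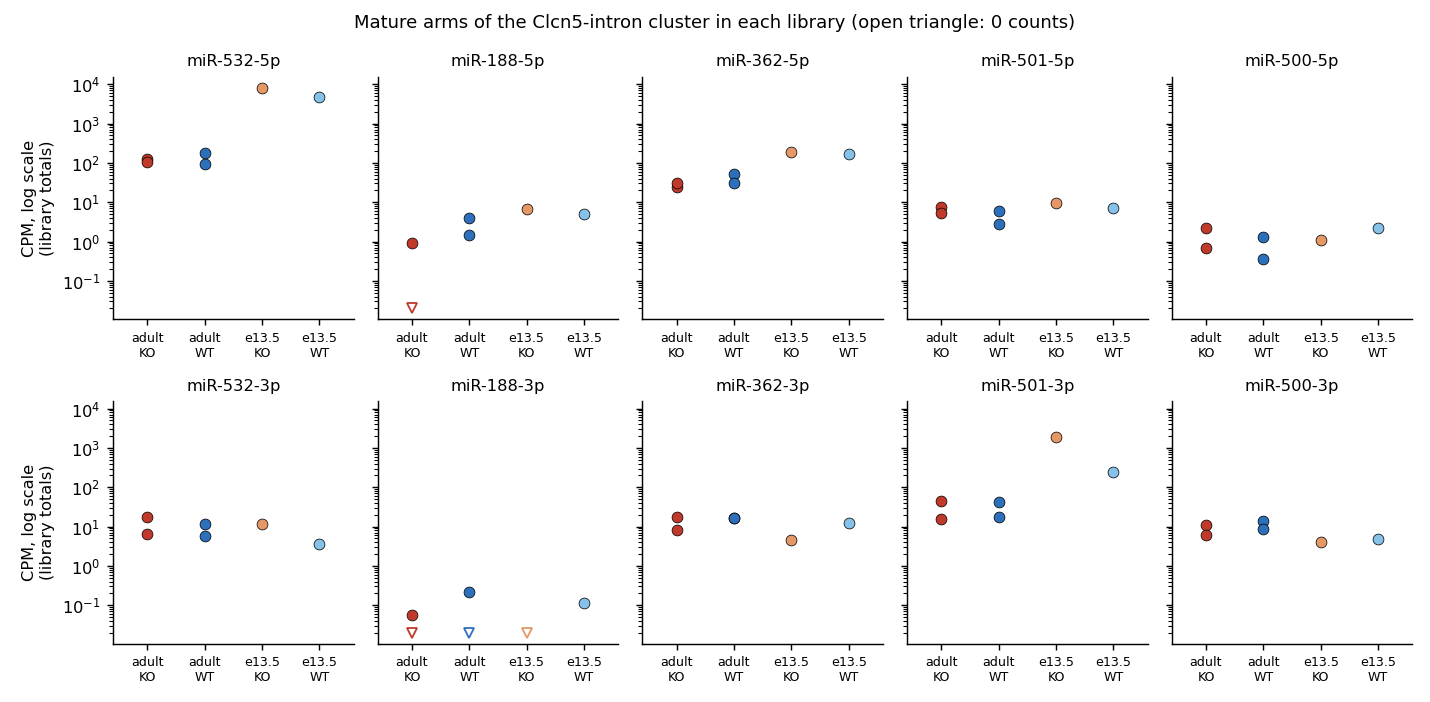
CPM of library totals on a log scale for each of the 10 arms, 1 point per library, with open triangles for 0 counts. The miR-532-5p, miR-501-3p, miR-362-5p and miR-188-5p points of all adult libraries sit below both e13.5 points, whereas those of miR-500-3p sit above them.

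The difference between stages was carried by 1 arm of each of 3 hairpins. miR-532-5p had 123 and 106 CPM in the adult knockouts and 177 and 91.6 CPM in the adult wild types, against 7982 CPM in the e13.5 knockout and 4668 CPM in the e13.5 wild type. Both e13.5 libraries stood far above every adult library, and the arm ranked 18th and 20th among mature miRNAs in them, against ranks 118 to 136 in adults. It was 23.6-fold lower in adults (log2 fold −4.56, SE 0.44, edgeR quasi-likelihood test with genotype as a term, Benjamini-Hochberg adjusted p = 9.81e-05). That log2 fold was −5.34 with median-of-ratios factors and by DESeq2, −5.65 with library totals and −5.22 without adult wild-type replicate 1, and the call held in each. miR-501-3p had 44.5 and 16.1 CPM in the adult knockouts and 42.9 and 18.0 CPM in the adult wild types, against 1902 CPM in the e13.5 knockout and 242 CPM in the e13.5 wild type. The stages again did not overlap, although the e13.5 libraries themselves lay far apart. Its log2 fold was −3.63 (SE 0.62, edgeR adjusted p = 0.0014), or 12.4-fold lower in adults. The size depended on single libraries: it was −2.45 without the e13.5 knockout (edgeR adjusted p = 0.0177), −4.61 without the e13.5 wild type and −4.51 without adult wild-type replicate 1. With median-of-ratios factors it was −4.41 and with library totals −4.75.

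miR-362-5p, which shares its seed with miR-500-5p, moved the same way by less. It had 24.9 and 30.3 CPM in the adult knockouts and 53.3 and 30.7 CPM in the adult wild types, against 193 CPM in the e13.5 knockout and 170 CPM in the e13.5 wild type. Its log2 fold was −1.31 (SE 0.49, edgeR adjusted p = 0.0439). The direction held throughout, but the call was near the threshold. It was lost without adult wild-type replicate 1 (log2 fold −1.90, edgeR adjusted p = 0.0625), adult wild-type replicate 2 (−1.58, 0.0997), the e13.5 knockout (−1.46, 0.127) or the e13.5 wild type (−1.20, 0.203). It was also lost with no filter (−1.27, 0.0904) and in the knockout libraries alone (−1.64). With hairpin counts, which hold the reads of both arms, the miR-362 hairpin did not pass (−0.91, 0.16). The log2 fold was larger, and called, with median-of-ratios factors (−2.10), with library totals (−2.43) and without adult knockout replicate 2 (−2.05).

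miR-500-3p, which has the seed of miR-501-3p, went the other way. It had 11.3 and 6.08 CPM in the adult knockouts and 14.1 and 8.57 CPM in the adult wild types, against 4.12 CPM (11 counts) in the e13.5 knockout and 4.81 CPM (43 counts) in the e13.5 wild type. Every adult library stood above both e13.5 libraries. The log2 fold was 2.14 (SE 0.66, edgeR adjusted p = 0.022), or 4.41-fold higher in adults, in the TMM-scaled fit. The arm was also called by limma voom (2.07, adjusted p = 0.0173), by DESeq2 (1.37, adjusted p = 0.0466) and with no filter (2.18, edgeR adjusted p = 0.0381). The edgeR call did not hold with median-of-ratios factors (log2 fold 1.38, adjusted p = 0.0877) or with library totals (1.16, adjusted p = 0.271). It was also lost without any 1 of the 6 libraries, where the log2 fold ran from 1.60 to 2.51. With hairpin counts, which hold both arms, the miR-500 hairpin did not pass (1.76, edgeR adjusted p = 0.0669).

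The partner arms did not follow the abundant ones. miR-532-3p had 17.8 and 6.59 CPM in the adult knockouts and 11.9 and 5.89 CPM in the adult wild types, against 11.6 CPM (31 counts) in the e13.5 knockout and 3.58 CPM (32 counts) in the e13.5 wild type. The stages overlapped in library CPM but not on TMM-scaled CPM, at 7.80 to 18.5 in adults, 5.36 in the e13.5 knockout and 2.88 in the e13.5 wild type. The TMM-scaled log2 fold was 1.67 (SE 0.65, edgeR adjusted p = 0.0518). It passed by limma voom (log2 fold 1.63, adjusted p = 0.0427). With median-of-ratios factors it was smaller and did not pass (0.91, edgeR adjusted p = 0.239). The same held with library totals (0.65, edgeR adjusted p = 0.55) and by DESeq2 (0.91, adjusted p = 0.22). miR-362-3p had 8.09 and 17.6 CPM in the adult knockouts, 16.5 and 17.0 CPM in the adult wild types, 4.49 CPM in the e13.5 knockout and 12.4 CPM in the e13.5 wild type. The stages overlapped for this arm in library CPM and on TMM-scaled CPM. The TMM-scaled log2 fold was 1.94 (SE 0.84, edgeR adjusted p = 0.0733), and it passed with no filter (1.97, edgeR adjusted p = 0.0482). With median-of-ratios factors it was smaller and did not pass (1.17, edgeR adjusted p = 0.233). The same held with library totals (0.92, edgeR adjusted p = 0.366) and by DESeq2 (1.18, adjusted p = 0.198). miR-501-5p lay between 2.80 and 7.60 CPM in adults and at 9.36 CPM in the e13.5 knockout and 7.04 CPM in the e13.5 wild type. miR-500-5p lay between 0.357 and 2.23 CPM in adults and at 1.12 and 2.24 CPM in the e13.5 knockout and wild type. Log2 folds of these arms were 0.37 (SE 0.67) and 0.18 (SE 1.15) and did not pass the test. With library totals they were −0.62 and −0.66, a scaling that also lowered the median of all miRNAs. Relative to that median they were 0.30 to 0.32 and 0.11 to 0.27 over 3 scalings, values that a change of scaling leaves nearly the same.

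miR-188 was rare throughout. Its 5p arm had 0 and 16 counts in the adult knockouts, 27 and 65 counts in the adult wild types, 18 counts in the e13.5 knockout and 46 counts in the e13.5 wild type. In library CPM every adult library lay below both e13.5 libraries, at no more than 3.87 CPM against 6.74 CPM in the e13.5 knockout and 5.14 CPM in the e13.5 wild type. On TMM-scaled CPM the stages overlapped. The log2 fold of adult over e13.5 for this arm was −1.17 (SE 1.26, edgeR adjusted p = 0.44). miR-188-3p, the arm known for Atg7, had 0 and 1 counts in the adult knockouts, 4 and 0 counts in the adult wild types, 0 counts in the e13.5 knockout and 1 count in the e13.5 wild type. It was the 1 arm that did not pass the filter on low counts, and its 0 counts allow a level of up to 0.2091 CPM in adult knockout replicate 1 and 1.123 CPM in the e13.5 knockout (3 counts of each total).

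Of the 9 arms tested between stages, 3 fell in adults and 1 rose. Over all 679 miRNAs tested, 57.7% passed, 29.3% lower and 28.4% higher in adults, so a count of 4 in 9 is below the share of all miRNAs. The median log2 fold of adult over e13.5 was 0.18 over the 9 arms and 0.06 over all miRNAs. Of all calls 193 were higher and 199 lower in adults with TMM, 133 and 241 with median-of-ratios factors, and 120 and 263 with library totals. Library totals moved the median of all miRNAs to −0.93 and median-of-ratios factors to −0.72. A change of scaling moves all miRNAs and their median nearly alike. Folds relative to that median are thus nearly the same under each scaling, which is no check on the calls. With TMM, median-of-ratios factors and library totals miR-532-5p stood at −4.62, −4.62 and −4.72 relative to it, miR-501-3p at −3.70, −3.70 and −3.82, and miR-500-3p at 2.08, 2.10 and 2.08. Non-overlap between stages in library CPM, seen for 4 arms that were lower and 1 that was higher in adults, held for 44.2% and 24.9% of all miRNAs tested. In the wild-type libraries alone 5 of 9 arms passed, against 60.6% of 698 miRNAs, and in the knockout libraries alone 2 of 9 passed, miR-532-5p and miR-501-3p, against 36.3% of 637.

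**Figure D2:**
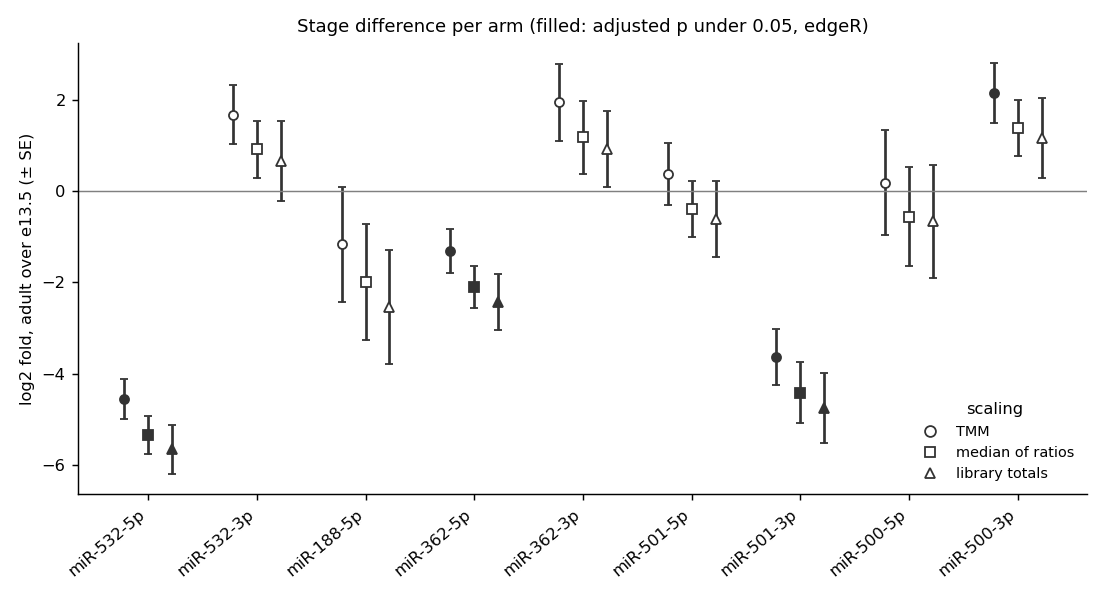
Log2 fold of adult over e13.5 libraries (± SE, edgeR, genotype as a term) for the 9 tested arms under 3 scalings, with filled symbols for an adjusted p under 0.05. miR-532-5p, miR-501-3p and miR-362-5p lie below 0 and are filled under each scaling, and miR-500-3p is filled with TMM only.

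The balance of the arms within a hairpin needs no scaling between libraries. Its change with stage passed for miR-532, miR-362 and miR-501 but not for miR-500, in a test chosen after the values were seen. Over all 178 hairpins tested 50.6% passed. The 3p arm of miR-532 held 12.7% and 5.86% of the hairpin's arm counts in the adult knockouts and 6.30% and 6.05% in the adult wild types, against 0.145% (Wilson 95% interval 0.102 to 0.206) in the e13.5 knockout and 0.0766% (0.0543 to 0.108) in the e13.5 wild type. For miR-362 the 3p share was 24.5% and 36.8% in the adult knockouts and 23.7% and 35.6% in the adult wild types, against 2.28% (1.31 to 3.94) in the e13.5 knockout and 6.81% (5.69 to 8.14) in the e13.5 wild type. Both hairpins thus held more of the rarer 3p arm in every adult library than in either e13.5 library.

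miR-501 moved toward its 5p arm. Its 3p share was 85.4% and 75.5% in the adult knockouts and 88.0% and 86.5% in the adult wild types, against 99.5% (99.3 to 99.7) in the e13.5 knockout and 97.2% (96.4 to 97.8) in the e13.5 wild type. The 3p share of miR-500, from far fewer reads, was 83.5% and 89.9% in the adult knockouts and 91.3% and 96.0% in the adult wild types, against 78.6% (52.4 to 92.4) of 14 counts in the e13.5 knockout and 68.3% (56.0 to 78.4) of 63 counts in the e13.5 wild type. Every adult share was below both e13.5 shares for miR-501 and above both for miR-500, and the change in miR-500 did not pass the test with a prior count of 0.5 added to each arm.

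The change of log2(5p/3p), adult minus e13.5, was −6.21 for miR-532 (SE 0.84, limma adjusted p = 0.000129), −3.33 for miR-362 (SE 0.87, limma adjusted p = 0.00747), 3.94 for miR-501 (SE 0.95, limma adjusted p = 0.00523) and −1.92 for miR-500 (SE 0.89, limma adjusted p = 0.088). Such changes were common: 50.6% of the 178 hairpins with at least 10 arm counts in every library passed, 56 toward 3p in adults and 34 toward 5p, and the shares of 56.7% did not overlap between stages. miR-532 was 12th of the 178 by size of change. With a prior count of 2 the change in miR-500 passed (−1.97, limma adjusted p = 0.0364), in a fit that called 112 of the 178 hairpins. Without the e13.5 knockout library the changes in miR-362 (−2.50, limma adjusted p = 0.142) and miR-501 (2.32, limma adjusted p = 0.151) did not pass, and the count over all hairpins was 21 in place of 90. Without the e13.5 wild-type library it was 43.

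**Figure D3:**
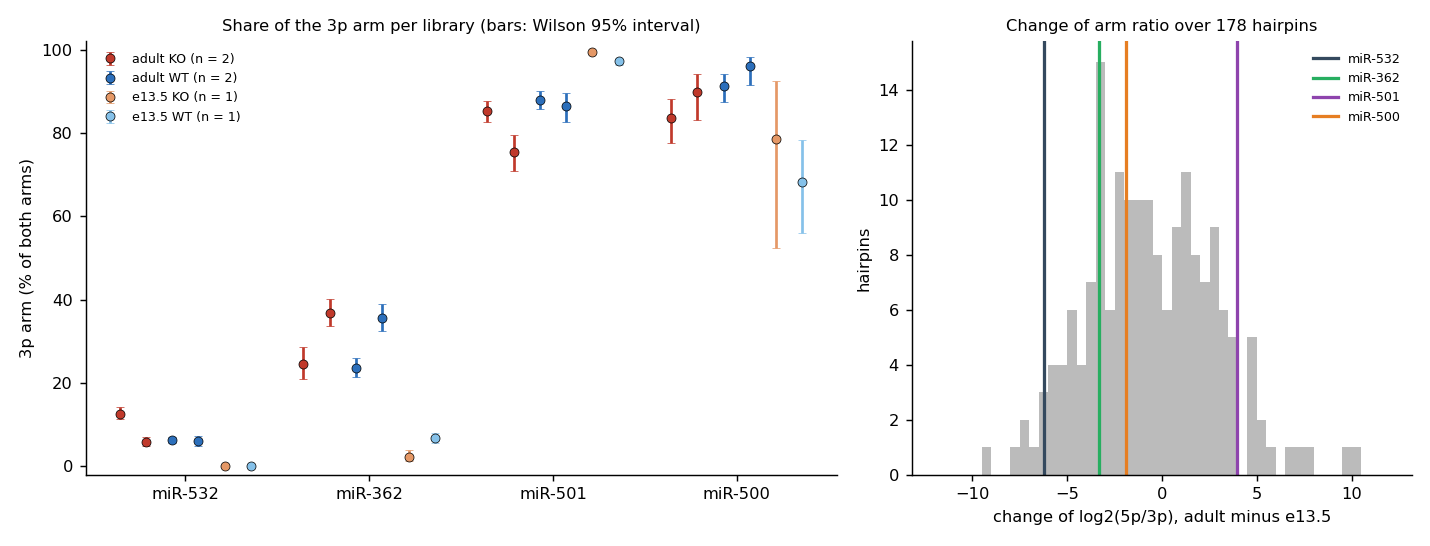
Left, 3p arm as a percentage of both arms per library for 4 hairpins, with Wilson 95% intervals; right, the change of log2(5p/3p) between stages over 178 hairpins, with the 4 hairpins as coloured lines. Adult points of miR-532, miR-362 and miR-500 lie above the e13.5 points and those of miR-501 below them, and all 4 changes fall within the range of the other hairpins.

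The make-up of the cluster differed between stages as well. miR-532 gave 58.8% and 59.4% of cluster counts in the adult knockouts and 58.3% and 54.5% in the adult wild types, against 79.0% in the e13.5 knockout and 91.3% in the e13.5 wild type. miR-362 gave 13.8% to 26.7% in adults, 1.95% in the e13.5 knockout and 3.56% in the e13.5 wild type. miR-500 gave 3.57% to 5.66% in adults, 0.0518% in the e13.5 knockout and 0.138% in the e13.5 wild type. For miR-501 the stages overlapped, at 11.2% to 21.8% in adults, 18.9% in the e13.5 knockout and 4.87% in the e13.5 wild type. These shares were described without a test.

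**Figure D4:**
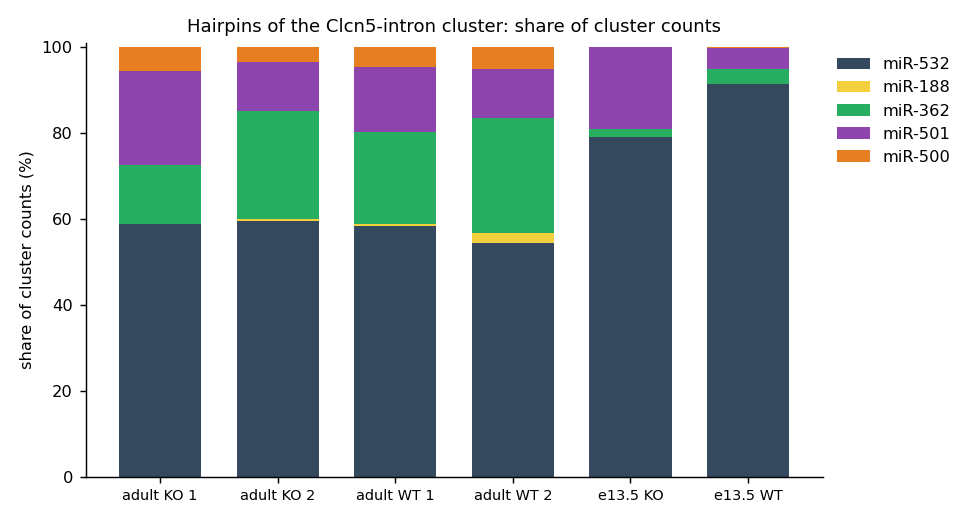
Share of the cluster's counts given by each of the 5 hairpins in each library, in percent of the sum of both arms. miR-532 gives 54.5% to 59.4% in the 4 adult libraries, 79.0% in the e13.5 knockout and 91.3% in the e13.5 wild type, and the miR-362 and miR-500 layers are wider in adults.

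The near-identical pair miR-501-3p and miR-500-3p differed in proportion between the stages. miR-501-3p reads outnumbered miR-500-3p reads 3.94 and 2.64 times in the adult knockouts and 3.05 and 2.10 times in the adult wild types. In the e13.5 knockout the ratio was 462 (exact 95% counting interval 258 to 926) and in the e13.5 wild type 50.3 (37.2 to 69.7). The 4 positions that separate the arms include the last 2 bases, and how mismatches were treated is not given in the sources used here.

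In adults no arm of the cluster passed the test between lncSync knockout and wild-type libraries. The count was 0 of 9 tested arms, against 0.735% of 544 miRNAs tested, and none had an unadjusted p under 0.05 by edgeR; DESeq2 and limma called none of the arms either. Log2 folds ran from −2.05 for miR-188-5p to 0.90 for miR-500-5p, with a median of 0.04 over the arms and 0.08 over all miRNAs. miR-532-5p stood at 0.04 (SE 0.47), miR-501-3p at 0.13 (SE 0.54) and miR-362-5p at −0.27 (SE 0.53), each with an edgeR adjusted p of 0.999. In library CPM the genotypes overlapped for miR-532-5p and miR-501-3p. For miR-362-5p 30.3 CPM was the highest knockout value and 30.7 CPM the lowest wild-type value. On TMM-scaled CPM the genotypes overlapped for this arm too, at 25.9 and 53.3 in the knockouts and 59.0 and 40.6 in the wild types. The cluster's summed level was 214 ± 35.0 CPM in the adult knockouts and 252 ± 103 CPM in the adult wild types (SD, n = 2 each), a ratio of 0.85 that turned to 1.20 without wild-type replicate 1. The exact two-sided permutation test gave p = 1, and the smallest p it allows is 0.333.

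miR-188-5p had the lowest fold, and it rested on few counts and on single libraries. Knockout replicate 1 had 0 counts and replicate 2 had 16, against 27 and 65 in the wild types. The edgeR log2 fold of −2.05 (SE 1.52, adjusted p = 0.999) became −8.56 without knockout replicate 2, a fitted fold against a single library at 0 counts that is no bound. Without knockout replicate 1 it was −1.01, and without wild-type replicate 2, the library with 65 counts, −1.15. In the same replicate 1 erythroid miRNAs held 2.23% of counts, against 0.565% in knockout replicate 2 and 1.57% and 1.04% in the wild types, and their part in this was not tested.

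At e13.5, with 1 library per genotype and so no replicate check, miR-501-3p stood out among the arms. It had 5081 counts (1902 CPM) in the knockout and 2164 counts (242 CPM) in the wild type. The ratio of knockout to wild type was 7.86 in library CPM (exact 95% counting interval 7.47 to 8.27) and 4.51 on TMM-scaled CPM (4.28 to 4.74). Its other arm, miR-501-5p, had 25 counts in the knockout and 63 in the wild type, a TMM-scaled ratio of 0.762 (0.459 to 1.23) whose interval includes 1. miR-362-3p was on the low side, with 12 counts in the knockout and 111 in the wild type, a TMM-scaled ratio of 0.207 (0.104 to 0.377) and 0.362 (0.182 to 0.658) in library CPM. miR-532-5p had 21327 and 41750 counts, a TMM-scaled ratio of 0.98 (0.964 to 0.997) and 1.71 (1.68 to 1.74) in library CPM, so its side depends on the scaling.

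At least 4-fold on TMM-scaled CPM, 1 of the 9 arms with 10 or more counts in either library was higher in the e13.5 knockout (miR-501-3p) and 1 was lower (miR-362-3p). Over all 565 such miRNAs 8.14% were higher and 9.2% lower by that rule, and the median log2 fold was −0.39 over the arms and −0.41 over all. miR-362-3p was under 4-fold with library totals (log2 fold −1.40) and with TMM over the e13.5 pair alone (−1.85), while miR-501-3p was past it in both (2.97 and 2.49). The balance over all 565 turned with the scaling. It was 46 higher and 52 lower as above, 81 and 26 with library totals, and 59 and 38 with TMM over the pair. The median over all was 0.36 with library totals and −0.11 with TMM over the pair. The e13.5 knockout library was the shallowest, its TMM factor was 2.166 against 1.242 in the e13.5 wild type, and its erythroid, cardiomyocyte and smooth muscle shares differed from the wild type as given above. Their part in these differences was not tested.

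**Figure D5:**
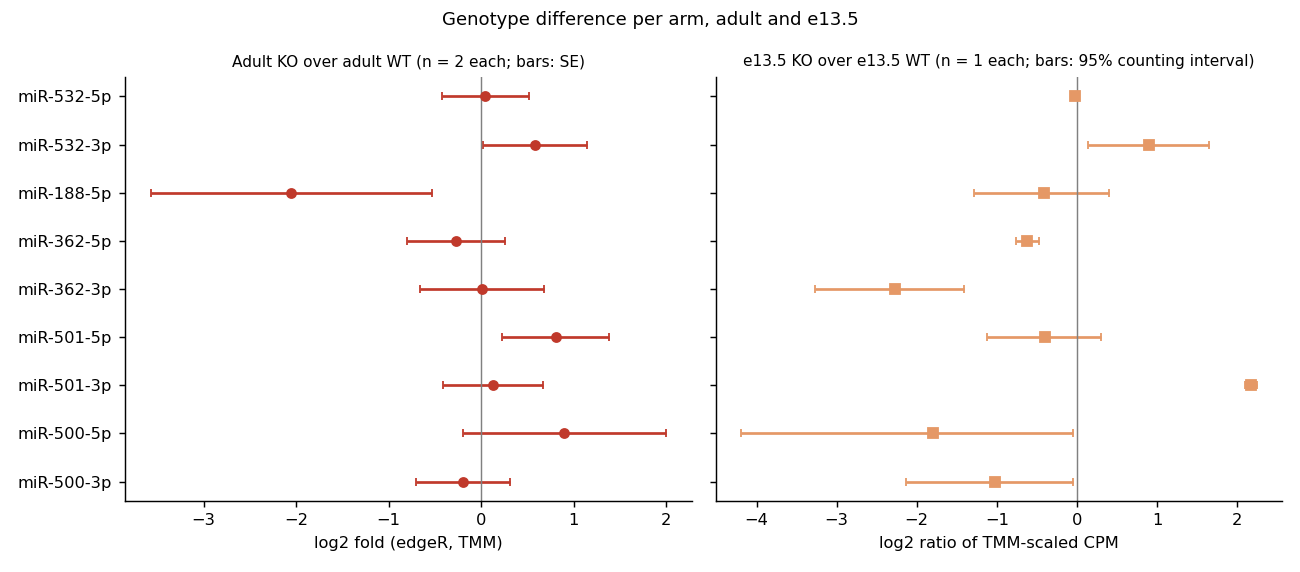
Left, log2 fold of adult knockout over adult wild type (edgeR, ± SE, n = 2 each); right, log2 ratio of e13.5 knockout over e13.5 wild type on TMM-scaled CPM (n = 1 each) with 95% counting intervals that cover counting error only. No adult arm passed the test, and at e13.5 miR-501-3p lies on the right and miR-362-3p on the left.

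Over both stages together, with stage as a term, none of the 9 arms passed for genotype, against 0.736% of 679 miRNAs, and none had an unadjusted p under 0.05 by edgeR. DESeq2 and limma also called none of them. Log2 folds of knockout over wild type ran from −1.53 for miR-188-5p to 0.74 for miR-501-3p. The test of whether the genotype difference itself changed with stage called 0 of 769 miRNAs (0%) by edgeR and by limma, with 46 at an unadjusted p under 0.05, and 4 by DESeq2, none of them in the cluster. miR-501-3p had the smallest p of the arms, at 0.0548 (edgeR adjusted p = 0.842), with an estimate of 2.11 (SE 0.96) for the e13.5 minus the adult genotype difference on the log2 scale. Without adult knockout replicate 1 that estimate was 2.48, in a fit with a single adult knockout library, and the e13.5 libraries have no replicate in this test. The estimate for miR-188-5p was 1.69 with all libraries and 7.93 without adult knockout replicate 2, where it again rests on the library with 0 counts.

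Other X-linked miRNA groups differed among themselves in direction between stages. In the edgeR stage fit 28.4% of all 679 miRNAs tested rose in adults and 29.3% fell, and of the cluster's 9 arms 1 rose and 3 fell. In that fit 4 of 4 tested arms of miR-221 and miR-222 rose in adults, and 1 of 4 of the miR-106a and miR-363 cluster fell. Of 7 tested arms of miR-542 and miR-450, 1 rose and 2 fell. Of 6 arms of miR-322, miR-503 and miR-351, 4 fell. In the separate adult genotype fit 4 of these 6 arms were lower in knockouts, and they made up all 4 calls among 544 miRNAs (0.735%). Of 17 tested arms of other X-linked miRNAs, 5 rose and 2 fell. The 5 miRNAs whose profile over the 6 libraries was nearest to the cluster's sum, by root mean square difference of centred log2 TMM-scaled CPM among 328 miRNAs, were miR-127-5p (0.307), miR-494-3p (0.389), miR-543-3p (0.448), miR-409-5p (0.481) and miR-34c-5p (0.486). All but miR-34c-5p come from chromosome 12, where they belong to the imprinted Dlk1-Dio3 region, and these distances are a description over 6 libraries that differ mainly by stage. Among the cluster's own arms miR-532-5p lay nearest to the sum, at 0.326, and miR-362-3p farthest, at 2.89. miR-532-5p is the largest part of the sum in every library, so its nearness is largely built in. The distances above thus describe chiefly the profile of miR-532-5p.

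miR-329-3p, the seed partner of miR-362-3p on chromosome 12, differed from it between stages. It had 0.767 and 0.965 CPM in the adult knockouts and 4.68 and 1.13 CPM in the adult wild types, against 74.9 CPM in the e13.5 knockout and 52.4 CPM in the e13.5 wild type (log2 fold −4.24, SE 0.70, edgeR adjusted p = 0.00115). miR-362-3p, at 8.09 to 17.6 CPM in adults, was thus counted more often than miR-329-3p in all 4 adult libraries and less often in both e13.5 libraries.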

How the data were processed

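The authors deposited 1 table of raw read counts per miRNA, 1 column for each library. Per the submitters' processing notes the build was mm10. Libraries were built from TRIZOL-extracted, DNase-treated total RNA with the NEXTFLEX Small RNA kit, per the labels' protocols. Aligner, counter, trimming and handling of multiply matching reads: not given in the sources used here. The table held 1234 hairpin and 1974 mature rows, and 0 columns belonged to other samples. Mature counts were used, and 22 mature rows that agreed within 1% with another (total at least 20, counts in at least 3 libraries) were merged, which left 1952 and touched no member.

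Tests used edgeR 4.0.16 in R 4.3.3 (quasi-likelihood fit and test, TMM, filterByExpr with a minimum count of 10, two-sided) at a Benjamini-Hochberg adjusted p of 0.05 over all miRNAs tested. The adult genotype fit held 4 libraries; stage, genotype over both stages and their interaction used all 6. The e13.5 genotypes were described with a prior count of 2. Arm ratios, with a prior count of 0.5 an arm, were tested with limma 3.58.1, a choice made after the values were seen. Alternatives used DESeq2 1.42.0, limma voom, other scalings and filters, hairpin counts and left-out libraries. Tests were checked on simulated data. Wilson and exact 95% intervals and the floor of 3 counts cover counting error only. All member arms were named whatever their values; other miRNAs were named by seed, by nearness of profile at a mean of at least 10 CPM, or as fixed lists of markers and X-linked groups. Members and lists were chosen with earlier results of these data known. The endothelial marker miR-126a held 1.65% to 3.11% of adult counts, 1.63% in the e13.5 knockout and 1.9% in the e13.5 wild type.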

Additional observations from a re-analysis of the deposited data

How the results depend on the processing

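The number of adult genotype calls over all miRNAs was 4, against 9 with no filter, 0 by limma voom and 5 to 47 when 1 library was left out. Stage calls were 193 higher and 199 lower, against totals of 231 in the knockout libraries alone and 261 to 381 with 1 library left out. Genotype calls over both stages were 5, against 3 with hairpin counts and 3 to 5 with 1 library left out. Interaction calls were 0, against 1 with library totals, 2 with no filter, 4 by DESeq2 and 0 to 87 with 1 library left out. Arm-ratio calls were 90, against 112 with a prior count of 2, 68 with at least 50 counts and 21 to 94 with 1 library left out. With the replicate number as a block, adult calls were 5 and no member arm passed; the numbers pair nothing in the labels, and the correlation of same-numbered deviations was −0.0109 over 423 miRNAs.

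Stage directions of miR-532-5p, miR-501-3p, miR-362-5p and miR-500-3p held under every alternative run. Uncalled folds changed sign. In adults (knockout over wild type), library totals gave log2 folds of −0.24 for miR-532-5p, −0.38 for miR-362-3p and −0.01 for miR-501-3p. miR-362-3p was −0.04 with median-of-ratios factors and by DESeq2, −0.32 by limma voom and −0.26 with the replicate block. With hairpin counts, which hold both arms, the miR-500 hairpin was 0.00. With 1 library left out the ranges were −0.39 to 0.42 for miR-532-5p, −0.95 to 0.16 for miR-362-5p, −1.27 to 0.66 for miR-362-3p, −0.41 to 0.70 for miR-501-3p and −0.53 to 0.03 for miR-500-3p, and 0.659 to 1.2 for the ratio of summed levels. Between stages miR-501-5p was −0.39 with median-of-ratios factors, −0.62 with library totals, −0.40 by DESeq2, −0.16 in wild-type libraries alone and −0.22 to 0.94 with 1 library left out. miR-500-5p was −0.56, −0.66, −0.55, −0.87 and −0.87 to 1.69 in the same order. Median-of-ratios factors and library totals shifted the median of all miRNAs to −0.72 and −0.93. Relative to it neither arm changed sign, though folds relative to the median hardly depend on the scaling. The cause of the other changes was not tested. Depth limits miR-188 and miR-500-5p most, with as few as 0 and 3 counts in a library.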
